A study of Homo sapiens with 4 samples.

Results

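The exons described here are the microexons of HEK293T cells, taken as cassette exons of 3 to 27 nt. They came from the table of skipped-exon events that the authors deposited, which counts, in each RNA-seq library, the reads that join an exon to its neighbours (inclusion) and the reads that join the neighbours directly (skipping). An exon was a member if it was 3 to 27 nt long and had a mean of at least 20 such junction reads over the 4 libraries. Where several rows held the same exon with other neighbours, the row with most reads was kept. The rule gave 434 microexons in 401 genes, out of 43103 exons of any length with the same depth and 49507 exons in the table. At any depth the table held 572 exons of 3 to 27 nt, so 434 of 572 passed the read minimum. The members were not all independent, since 5 pairs of them (10 microexons) overlapped and differed only in 1 splice site.

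HEK293T is a human embryonic kidney line that is readily transfected. Per the labels, 2 libraries came from cells transfected by lipid with an antisense oligonucleotide (ASO) of the gapmer type that targets SNORD89, at 70 nM, and 2 came from cells whose treatment is given as none. A gapmer has a central DNA stretch that lets RNase H cut the bound RNA, and SNORD89 belongs to the box C/D small nucleolar RNAs, which guide RNA methylation. No library with a control ASO is named, the protocol text for the untreated cells repeats the transfection, and RNA was taken at 48 h from a poly(A)-selected, 150-bp paired-end preparation. The replicates are labelled biological, but separate cultures are not described, so the spread between them may be partly technical.

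The table names its groups only as a first and a second set of 2 libraries, and the sources used here do not say which set had the ASO. Every difference below is therefore the first set minus the second set, and a library is named by its place in its set. SNORD89 itself is not a skipped exon and was not analysed here, nor was the cell line checked against marker genes, because the table holds splice junction reads only. The libraries had 191771 to 208790 junction reads on the microexons. Library 2 of the second set stood apart: 98 microexons had a level of exactly 0 there and 100 a level of exactly 1, against 35 to 58 and 50 to 59 in each of the other 3 libraries. Where a named difference rests on it, the value without it is also given, except for microexons chosen after their values were seen.

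Microexons are exons so short that they add only a few amino acids, and splicing them requires help because both splice sites crowd together. Many have a length that is a multiple of 3, so that including them keeps the reading frame. Neurons include a large programme of such exons through the splicing factor SRRM4 (nSR100) and its relative SRRM3, while PTBP1, abundant in non-neuronal cells, represses many of them. The encoded inserts often lie at the surface of proteins that act in vesicle transport, the cytoskeleton and signalling, where they tune contacts with partners.

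The microexons on which the results turn are shown here as they read in spliced mRNA. Capitals mark the microexon, and lower case marks 12 nt of the exon before and after it. All are coding in GENCODE release 29, whose transcripts (build GRCh38) supplied the sequence after matching by gene, exon length and intron lengths. Positions are those of the deposited table, in hg19. The first 6 are microexons whose level differed between the sets in the authors' test.
SUCO, 21 nt, chr1:172546679-172546699, plus strand: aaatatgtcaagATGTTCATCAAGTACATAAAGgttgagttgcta
COL13A1, 27 nt, chr10:71631940-71631966, plus strand: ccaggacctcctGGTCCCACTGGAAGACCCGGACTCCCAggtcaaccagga
NT5C2, 24 nt, chr10:104865115-104865138, minus strand: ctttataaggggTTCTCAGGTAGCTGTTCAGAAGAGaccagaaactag
CSNK1G3, 24 nt, chr5:122941033-122941056, plus strand: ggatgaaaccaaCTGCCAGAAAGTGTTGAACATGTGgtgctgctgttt
VPS29, 12 nt, chr12:110937340-110937351, minus strand: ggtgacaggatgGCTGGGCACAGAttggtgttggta
RWDD4, 3 nt, chr4:184567504-184567506, minus strand: gatgttgtgaagCATttaagcaaaact

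The next 6 show the span of lengths and levels among deeply read microexons, from 6 nt to 24 nt. AP2M1, AP1B1 and FLNA were included in part in every library, SPTAN1 carried a microexon that was nearly always included and another that was nearly always skipped, and AGRN was almost wholly skipped.
AP2M1, 6 nt, chr3:183898433-183898438, plus strand: atcaagagtcagCATCAGacaaaagaagag
AP1B1, 9 nt, chr22:29725701-29725709, minus strand: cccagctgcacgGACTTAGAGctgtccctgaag
FLNA, 24 nt, chrX:153585619-153585642, minus strand: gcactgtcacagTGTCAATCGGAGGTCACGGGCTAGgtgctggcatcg
SPTAN1, 15 nt, chr9:131371930-131371944, plus strand: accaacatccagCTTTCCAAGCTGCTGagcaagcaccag
SPTAN1, 18 nt, chr9:131390204-131390221, plus strand: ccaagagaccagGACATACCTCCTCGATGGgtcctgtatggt
AGRN, 12 nt, chr1:986412-986423, plus strand: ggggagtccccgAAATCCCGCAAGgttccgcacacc

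The last 4 are microexons at the same place in related genes, to show how alike they are. ASXL2 and the first dynamin 1 exon were chosen after their values were seen. The 3-nt exons of ASXL1 and ASXL2 were identical, and with their flanks 24 of 27 bases matched. The 12-nt exons of DNM1 and DNM2 matched at 9 of 12 bases, and at 24 of 36 bases with the flanks.
ASXL1, 3 nt, chr20:30955530-30955532, plus strand: aaaggaaatgagAAGtgggacttcccc
ASXL2, 3 nt, chr2:26058407-26058409, minus strand: aaaagaaatcagAAGtgggacttctcc
DNM1, 12 nt, chr9:131002264-131002275, plus strand: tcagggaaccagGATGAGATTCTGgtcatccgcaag
DNM2, 12 nt, chr19:10919245-10919256, plus strand: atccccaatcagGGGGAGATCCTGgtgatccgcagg

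Lengths that are a multiple of 3 were common among the microexons. They made up 273 of 434, or 62.9%, against 40.7% of the 2167 exons of 28 to 50 nt and 40.3% of all 43103 tested exons. The most frequent lengths were 27 nt with 69 exons, 24 nt with 60, 18 nt with 37, 21 nt with 34, and 12 and 25 nt with 27 each. The share was higher in the shorter microexons: 79.4% of the 34 exons of 3 to 9 nt, 78.0% of the 59 of 10 to 15 nt, 59.7% of the 119 of 16 to 21 nt and 58.1% of the 222 of 22 to 27 nt. Near the upper limit of the rule, median levels of multiples of 3 were 0.261 at 24 nt and 0.535 at 27 nt. At 30 nt, outside the rule, the median was 0.949 (79 exons). Lengths that are not a multiple of 3 had 0.948 and 0.952 at 25 and 26 nt, and 0.963 at 28 nt, just outside (31 exons).

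**Figure D1:**
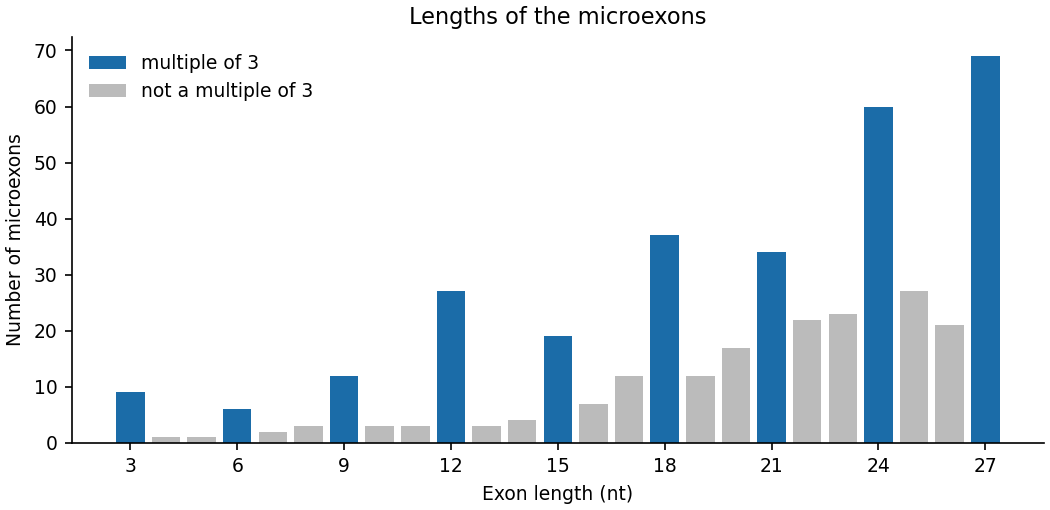
Number of microexons (y axis) at each exon length in nt (x axis), with lengths that are a multiple of 3 in blue and others in grey. The tallest bars are at 27, 24 and 18 nt, with 69, 60 and 37 exons.

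The shortest possible exon that keeps the frame adds 1 codon. There were 9 exons of 3 nt, in ASXL1, ASXL2, NCAM1, CYTH1, C14orf166, CLASP2, RWDD4, VDAC3 and SMARCA4. In ASXL1, ASXL2 and NCAM1 the added triplet was AAG, in CYTH1 and C14orf166 GAG, in CLASP2 AGA and in RWDD4 CAT. These exons covered the whole range of inclusion. ASXL1, a Polycomb-associated chromatin protein, had levels of 0.908 and 0.912 in the libraries of the first set, against 0.935 and 1.00 in the second, and ASXL2 had 0.967, 1.00, 0.855 and 1.00. VDAC3, a mitochondrial outer membrane channel, had 0.00256, 0.00559, 0.00176 and 0.000399 from 2227 to 2454 reads. SMARCA4, a chromatin remodelling ATPase, had 0 in 3 libraries and 0.0158 in the other. Its exon is not coding in the matched transcript, so it adds no codon there.

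Of the 429 microexons matched to the annotation, 338 (78.8%) lay wholly in coding sequence, 14 in part and 77 outside it. Among the coding microexons 232 (68.6%) kept the frame, against 43.6% of all coding exons tested. Of those 232, 113 began at a codon boundary, so that they insert whole codons and change none at the junction, 45 began 1 base and 74 began 2 bases before the first whole codon. In base composition 47.0% of the microexons' bases, pooled, were G or C, against 51.5% over all tested exons, and 30.6% were A against 25.6%. Their last base was G in 81.6%, against 80.2% of all tested exons, and their first base was G in 35.9% against 45.6%. The last base of an exon and the first base are part of the splice site signals.

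The inclusion level is the share of inclusion reads after each form's reads are divided by the number of positions at which a read can fall on it (149 for skipping and 152 to 176 for inclusion). A level of 0.5 in a bulk library can mean that every cell makes both forms or that cells differ, and these cannot be told apart. The microexons had a median level of 0.497 over the 4 libraries, and 0.530, 0.486, 0.540 and 0.491 in each library in turn. Exons of 28 to 50 nt had a median of 0.960 and all tested exons 0.983. The microexons fell into 2 large groups at the ends of the scale, with 131 (30.2%) at or under 0.05 and 132 (30.4%) above 0.95. The other 171 (39.4%) lay between, against 23.1% of all tested exons and 28.7% of those of 28 to 50 nt. These are called alternative below.

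**Figure D2:**
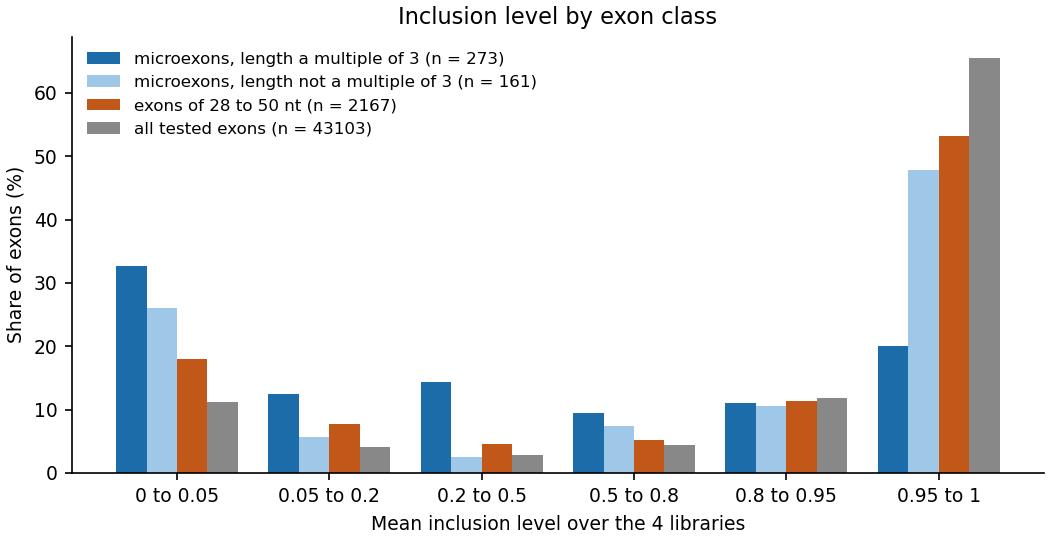
Share of exons in percent (y axis) in 6 ranges of the mean inclusion level over the 4 libraries (x axis), for microexons by whether their length is a multiple of 3, exons of 28 to 50 nt and all tested exons. All tested exons sit mostly in the last range (65.6%), whereas frame-keeping microexons spread over all 6.

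Frame and inclusion went together among the microexons. Those with a length that is a multiple of 3 had a median level of 0.295 and 47.3% of them were alternative. The 161 others had a median level of 0.929 and 26.1% were alternative. Over all tested exons the medians by frame were 0.981 and 0.984. Within coding sequence the gap was similar, with medians of 0.363 for the 232 frame-keeping and 0.980 for the 106 frame-shifting microexons. Microexons outside coding sequence had a median of 0.0496. Of the 138 coding alternative microexons, 118 (85.5%) kept the frame. These levels are descriptions, and no test was made of the difference between exon classes.

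The 2 libraries of a set differed by more than read counting allows. Their scatter was 2.90 times the binomial variance in the first set and 4.62 times in the second, against 2.69 and 4.91 over all tested exons. Among alternative microexons, 14 of 171 (8.19%) were more than 0.2 apart between the first set's libraries and 38 of 162 (23.5%) between the second set's. The second set also had fewer reads per microexon, with medians of 89.00 and 101.5 against 153.0 and 133.5. The median microexon differed by 0.0160 between the sets, in either direction, and the median SD within a set was 0.0171. Over all tested exons these medians were 0.0104 and 0.0117. A difference between means of 2 libraries and an SD of single libraries are unlike measures, so the values are a description and no test.

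The comparison of the sets asks which microexons were included more or less where SNORD89 was targeted. In the authors' deposited table, 15 of 434 microexons (3.46%) had an FDR under 0.05 and a difference of at least 0.1. Over all tested exons the same call was made for 2.50%. Of the 15, 7 were higher in the first set, against 1.23% of all tested exons, and 8 were lower, against 1.27%. All 15 were alternative, which a difference of at least 0.1 all but requires. Among alternative exons the share was 8.77% (15 of 171) against 10.8% of the 9968 alternative exons of any length. By direction, 4.09% of the alternative microexons were called higher in the first set, against 5.31%, and 4.68% lower, against 5.49%. The calls were thus spread in both directions at shares near the background. At any size of difference, 29 microexons (6.68%) passed an FDR of 0.05 by the authors' deposited table, against 5.60% of all tested exons. The median difference over the 434 was 0.000749, with 227 microexons higher in the first set and 207 lower, and -0.00130 over all tested exons.

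**Figure D3:**
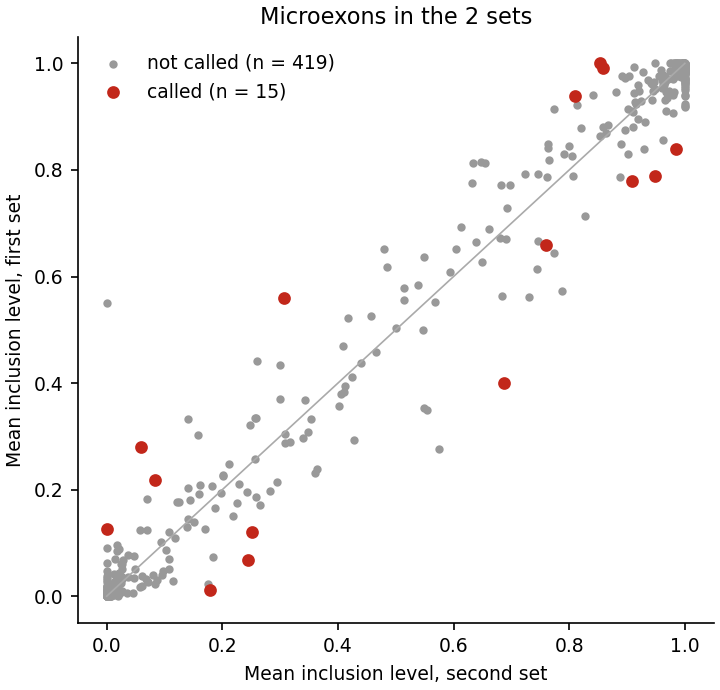
Mean inclusion level of each microexon in the first set (y axis) against the second set (x axis), both from 0 to 1, with the line of equal levels; the 15 called microexons are in red. Most points lie on or near the line; the grey point at 0 in the second set and 0.551 above it is RAPGEF2, which had 2 reads in 1 library of the second set and none in the other.

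A second test took the scatter between libraries as its error: a quasi-binomial model fitted to all 54503 tested events, with limma's moderation of the dispersion and Benjamini-Hochberg adjustment. It called 1 microexon, in RPS24, at an adjusted p under 0.05, against 0.0348% of all tested exons. None of the 15 microexons called from the authors' deposited table passed it, and their adjusted p from the quasi-binomial model ran from 0.283 to 0.767. Before adjustment 31 microexons (7.14%) had a quasi-binomial p under 0.05, against 6.83% of all tested exons, and 12 of the 15 were among them. In 13 of the 15, both libraries of one set lay above both of the other. That held for 128 of 434 microexons (29.5%) and 23.3% of all tested exons. A further 32 microexons differed by at least 0.1 and were not called.

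In 4 of the 15 the difference stayed at 0.1 or more whichever library was left out. ROBO3, a receptor that governs the crossing of axons at the midline, had levels of 0.547 and 0.573 in the libraries of the first set, against 0.335 and 0.279 in the second, from 23 to 58 reads a library. The sets did not overlap, and the means were 0.560 ± 0.0184 and 0.307 ± 0.0397 (SD, n = 2 each). For ROBO3 the authors' deposited table lists a difference of 0.253 with FDR 0.0254. Its 24-nt exon at chr11:124747057-124747080 is not coding in the matched transcript. Against other neighbouring exons, in a second row of similar depth, its levels were 0.971, 0.890, 0.923 and 0.850, which overlap.

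SUCO, a membrane protein of the endoplasmic reticulum, had the largest difference of the 15. Its 21-nt exon had levels of 0.427 and 0.372 in the libraries of the first set, against 0.740 and 0.637 in the second, with means of 0.400 ± 0.0390 and 0.688 ± 0.0731 (SD, n = 2 each). Neither set reached into the range of the other, although library 1 of the second set held just 17 reads. In the authors' deposited table SUCO differed by -0.289 (FDR 0.0266). Leaving out each library in turn gave -0.237 to -0.341.

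COL13A1 encodes a transmembrane collagen, and its 27-nt exon, which begins at a codon boundary, reads as a run of collagen-type triplets. It had levels of 0.253 and 0.307 in the libraries of the first set, against 0.120 and 0.00 in the second, from 21 to 36 reads. The first set lay above the second, by 0.22 (FDR 0.0199) in the authors' deposited table, and by 0.160 to 0.280 with a library left out. A second 27-nt microexon of the same gene was nearly always included, at 0.967, 1.00, 1.00 and 1.00.

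NT5C2 is a cytosolic nucleotidase that acts on purine nucleotides. Its 24-nt exon was included at 0.195 and 0.242 in the libraries of the first set, against 0.0687 and 0.0972 in the second, from 38 to 155 reads. The sets did not overlap, and the means were 0.218 ± 0.0332 and 0.0830 ± 0.0201 (SD, n = 2 each). The difference was 0.136 and the FDR 0.0240 in the authors' deposited table.

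CSNK1G3, a membrane-bound casein kinase, came close to the same stability. Its 24-nt exon had levels of 0.152 and 0.0888 in the libraries of the first set, against 0.287 and 0.217 in the second. The second set was the higher in both libraries. Per the authors' deposited table it differed by -0.132 (FDR 0.0368), and with a library left out by -0.0970 to -0.166.

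Of the 38 microexons of membrane traffic genes, 3 (7.89%) were called, against 2.50% of all tested exons; 24 of the 38 were alternative, and 10.8% of all alternative exons were called. VPS29, a subunit of the retromer that returns cargo from endosomes, was the deepest of the 15. Its 12-nt exon had levels of 0.653, 0.666, 0.721 and 0.797 from 394 to 577 reads, so the second set was the higher. The difference was -0.1 (FDR 0.0364) in the authors' deposited table and -0.0618 without library 2 of the second set. A second, shallower row of the same exon had a difference of 0.0382, in the other direction. DNM1, the dynamin that severs vesicles at the synapse, had a 12-nt exon at chr9:131010203-131010214 with levels of 0.830 and 0.730 in the libraries of the first set, against 0.898 and 0.921 in the second. It differed by -0.129 (FDR 0.0333) in the authors' deposited table, and without library 2 of the first set by -0.0790. HOOK3, which links cargo to dynein, had a 6-nt exon at 0.0846 and 0.167 in the libraries of the first set, against 0 of 18 and 0 of 21 reads in the second. Those zeros allow levels of up to 0.17 and 0.15 (upper 95% Wilson bounds). The authors' deposited table lists 0.126 (FDR 0.00542) for HOOK3, and without library 2 of the first set the difference was 0.0846.

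Another 3 calls were lower in the first set, and each fell under 0.1 in size without 1 library. ACACA and DCTD stayed as near to 0.1 as CSNK1G3 did, and CCDC66 fell further. ACACA, the acetyl-CoA carboxylase of fatty acid synthesis, had 0.848, 0.728, 0.896 and 1.00, and its difference (FDR 0.00282 in the authors' deposited table) went from -0.160 to -0.0995 without library 2 of the first set. CCDC66, a protein of centrioles and cilia, had 0.751, 0.929, 0.968 and 1.00 in a 26-nt exon that shifts the frame, with an FDR of 0.00130 by the authors' deposited table. Its difference was -0.0554 without library 1 of the first set and -0.233 without library 2. DCTD, which deaminates deoxycytidylate, had 0.00, 0.0250, 0.110 and 0.247 in an 8-nt exon outside coding sequence. The authors' deposited table gave DCTD the lowest FDR of the 15, 0.000148, and its difference was -0.0976 without library 2 of the second set.

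In the last 4, library 2 of the second set alone stood away from the other 3. RWDD4 had levels of 1.00, 1.00, 1.00 and 0.706, and its difference of 0.147 became 0.00 without that library. ATP13A3, a polyamine transporter, had 0.981, 1.00, 1.00 and 0.717, and its difference of 0.132 became -0.00944. GRIPAP1, a protein of recycling endosomes, had 0.956, 0.921, 0.907 and 0.713, and its difference of 0.129 became 0.0321. GPATCH8 had 0.0637, 0.0708, 0.106 and 0.383, and its difference of -0.177 became -0.0391. Their FDRs in the authors' deposited table were 0.00882, 0.0495, 0.00880 and 0.0415 in this order. Without this library 9 of the 15 still differed by at least 0.1. The authors' FDR was kept from all 4 libraries, and other microexons were not counted.

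**Figure D4:**
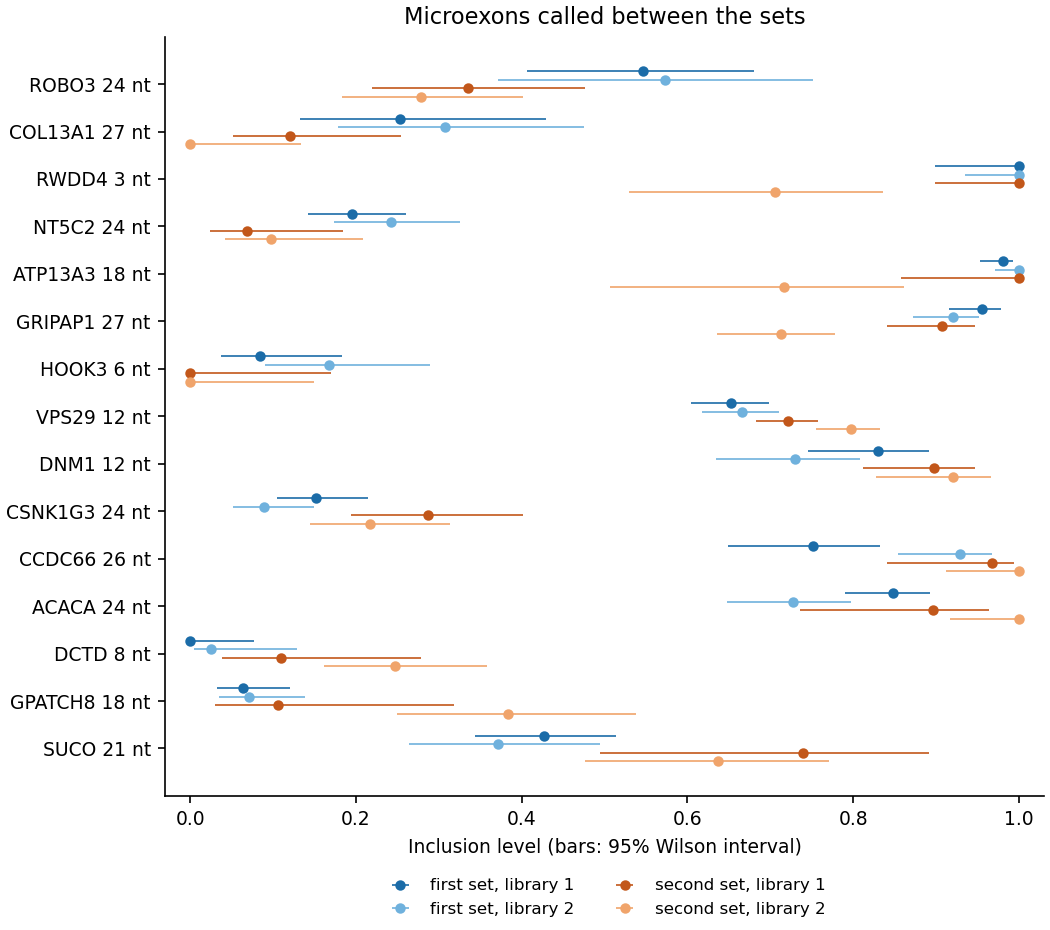
Inclusion level (x axis, 0 to 1) of the 15 called microexons in each library, first set in blue and second set in orange, with 95% Wilson intervals that cover counting error only. ROBO3, COL13A1, NT5C2 and SUCO show the sets apart, and in RWDD4, ATP13A3, GRIPAP1 and GPATCH8 library 2 of the second set stands alone.

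The other 14 microexons with an FDR under 0.05 differed by less than 0.1, and those named here were chosen after their values were seen, except ASXL1 and SLC38A10. ASXL1 differed by -0.057 (FDR 0.0247) in the authors' deposited table, and from the recomputed levels by -0.0253 without library 2 of the second set and -0.0902 without library 1. GIT1, a scaffold that regulates ARF proteins and focal adhesions, had 0.107, 0.0338, 0.0278 and 0.00 in a 27-nt exon, and MTMR3, a phosphoinositide phosphatase, had 0.129, 0.0479, 0.0421 and 0.00. In both, library 1 of the first set was the high one, and the other 3 lay within 0.05 of each other. STIM2, a calcium sensor of the endoplasmic reticulum, showed the same order in a 24-nt exon, with 0.131, 0.0394, 0.0361 and 0.00. ERO1L, an oxidase of the endoplasmic reticulum, had 0.986, 0.965, 0.937 and 0.869 in a 12-nt exon, with library 2 of the second set the lowest. The authors' deposited table gave FDRs of 0.000131 for GIT1, 0.00336 for MTMR3, 0.0373 for STIM2 and 0.00180 for ERO1L. SLC38A10, an amino acid transporter, had 0.103 and 0.0898 for a 24-nt exon in the first set; the second had 0.0240 and 0.0122, from 68 to 141 reads. Here the libraries of a set lay close together and the sets did not overlap, and in the authors' deposited table the difference was 0.079 and the FDR 0.00326. Its quasi-binomial adjusted p was 0.612.

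Several microexons differed by as much as SLC38A10 or more without passing. In PVR, DPH7, CAMKK1 and MON2 the libraries of a set also differed. PVR, the poliovirus receptor and an adhesion protein, had 0.712, 0.522, 0.633 and 0.336 for a 24-nt exon from at least 68 reads. The sets overlapped, and the authors' deposited table gave it an FDR of 0.790; without library 2 of the second set its difference was -0.0157 in place of 0.133. DPH7, of diphthamide synthesis, had 0.874, 0.752, 0.775 and 0.535, and CAMKK1, a kinase upstream of calmodulin-dependent kinases, had 0.914, 0.928, 0.934 and 0.691. In both, library 2 of the second set was the lowest, and without it the difference of CAMKK1 was -0.0134 in place of 0.108 and that of DPH7 0.0377 in place of 0.158. MON2, a scaffold of the Golgi, had 0.541, 0.793, 0.784 and 0.708, where library 1 of the first set was the lowest.

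The following 3 were chosen after their values were seen, as microexons of transport and signalling genes in which the sets did not overlap. AP1G1, the gamma subunit of the AP-1 adaptor, had 0.354 and 0.311 for a 9-nt exon in the first set; the second had 0.239 and 0.0411. KIF3A, a subunit of the kinesin-2 motor, had 0.292 and 0.417 for a 9-nt exon, and then 0.465 and 0.632. TNIK, a kinase of Wnt signalling, had 0.274 and 0.425 for a 24-nt exon, and then 0.496 and 0.612. The FDRs in the authors' deposited table were 0.0892 for AP1G1, 0.238 for KIF3A and 0.308 for TNIK, so none passed.

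The microexon called by the quasi-binomial model was in RPS24, a protein of the small ribosomal subunit whose last exons are spliced in several ways. Its 22-nt exon at chr10:79799962-79799983 is not coding in the matched transcript. That label does not show that including it leaves the protein's end unchanged, which was not examined. The levels were 0.301 and 0.315 in the libraries of the first set, against 0.348 and 0.349 in the second, from 7025, 8860, 12874 and 11273 reads. The sets did not overlap and the difference was -0.0407, a small one read at great depth. Its quasi-binomial adjusted p was 0.00222, while the authors' deposited table gave an FDR of 0.421. With limma on the log2 ratio its adjusted p was 0.973. The call was lost without either library of the first set, with adjusted p of 1.00 and 0.748, although the difference stayed between -0.0334 and -0.0479. The other RPS24 microexons, of 18 and 25 nt, were at or under 0.000722 in every library. The 25-nt exon overlaps the 22-nt exon and begins 3 bases earlier.

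Most other deeply read alternative microexons differed little between the sets. AP2M1, the subunit of the AP-2 adaptor that binds sorting signals in endocytosis, included its 6-nt exon at 0.688, 0.689, 0.688 and 0.637 from 1998 to 2600 reads. AP1B1, a large subunit of the AP-1 adaptor, included its 9-nt exon at 0.283, 0.291, 0.309 and 0.306. FLNA, which crosslinks actin, had 0.615, 0.638, 0.667 and 0.634, and HNRNPC, an RNA-binding protein, had 0.863, 0.864, 0.850 and 0.858 in a 26-nt exon outside coding sequence. The authors' deposited table gave an FDR of 1.00 for each of these 4, which does not show that the sets were alike. The sets did not overlap in AP2M1, AP1B1 and HNRNPC, with differences of 0.0265, -0.0211 and 0.00943, and overlapped in FLNA. Without library 2 of the second set AP2M1 differed by 0.000935. Among the 43 alternative microexons with a mean of at least 200 reads, 36 differed by less than 0.05 between the sets and 1 was called. The called microexons had a median depth of 68.2 reads and the others 131.

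A list of 67 genes known to carry neural or muscle microexons held 24 of the members, in 18 genes. It was applied by gene symbol, so a member need not be the known microexon of its gene. Of the 24, 23 had a length that is a multiple of 3, and the median level was 0.0404, against 0.497 over all microexons. A level of at most 0.05 was found in 14 and of at most 0.1 in 17, while 2 were above 0.9. None was called from the authors' deposited table and none had an FDR under 0.05 there at any difference; in 10 of the 24 the sets did not overlap, against 29.5% of all microexons and 23.3% of all tested exons. The quasi-binomial adjusted p was at least 0.696 for each of those named below.

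DCTN1, the large subunit of dynactin, skipped both its microexons almost completely, at 0.000923 to 0.00539 for the 15-nt exon from 968 to 1180 reads and at 0.00 to 0.00996 for the 21-nt exon. PTPRF, a receptor phosphatase of the LAR family, had at most 0.0112 for its 12-nt and at most 0.0260 for its 27-nt exon. AGRN, the proteoglycan that gathers receptors at the neuromuscular junction, had 0.00823, 0.00, 0.00970 and 0.0281 for its 12-nt exon. MEF2D, a transcription factor of muscle and nerve, had 0.0229, 0.00, 0.0183 and 0.00 for its 21-nt exon.

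Other members of this list were included at low to middle levels. MACF1, which links actin to microtubules, had 0.0486, 0.0724, 0.0180 and 0.0343, and CLASP2, a protein of growing microtubule ends, had 0.0182, 0.0271, 0.0981 and 0.0675 for its 18-nt exon. ABI1, a subunit of the WAVE complex, had 0.0753, 0.0255, 0.0498 and 0.166, where library 2 of the second set was the highest and without it the difference was 0.000636 in place of -0.0572. DNM2, the dynamin of most tissues, included its 12-nt exon at 0.147, 0.186, 0.157 and 0.218. The paralogous exon of DNM1, shown above, was at 0.209, 0.172, 0.249 and 0.0689. DNM1, whose other 12-nt exon was called, is not on the list. PTPRS, another phosphatase of the LAR family, had 0.358, 0.356, 0.365 and 0.437 for its 12-nt exon, and 0.0162, 0.0184, 0.0925 and 0.0229 for its 18-nt exon.

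**Figure D5:**
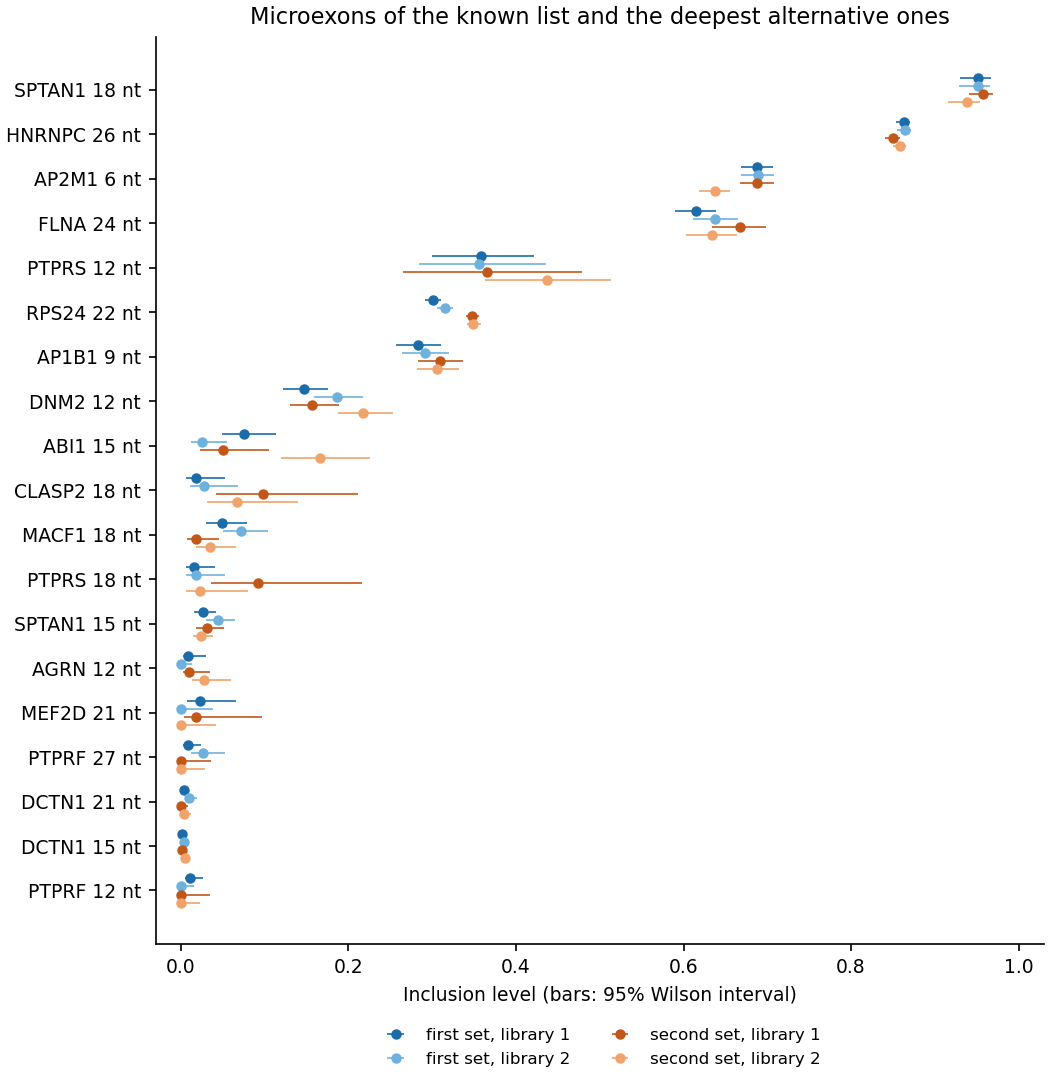
Inclusion level (x axis, 0 to 1) in each library of deeply read microexons of the known list, together with the 5 deepest alternative microexons, first set in blue and second set in orange, with 95% Wilson intervals that cover counting error only. SPTAN1 appears near both ends of the scale, and most of the known list lies under 0.1.

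Some genes held microexons of opposite behaviour. There were 31 genes with more than 1 member. SPTAN1, the alpha chain of non-erythroid spectrin, had 0.0263, 0.0444, 0.0308 and 0.0238 for its 15-nt exon and 0.952, 0.951, 0.958 and 0.938 for its 18-nt exon. CLASP2 skipped its 18-nt exon as above and included its 3-nt exon at 0.951, 0.989, 1.00 and 1.00. AP1B1 included its 9-nt exon in part, while its 21-nt exon had at most 0.0188. SLIT2, a secreted ligand of ROBO receptors, had 0.213, 0.181, 0.227 and 0.339 for a 12-nt exon and 0.806, 0.738, 0.787 and 0.606 for a 24-nt exon. In SENP6, a SUMO protease, the 21-nt and 18-nt exons share an end and differ by 3 bases at the start, and the levels varied widely within sets, from 0.247 to 0.828 for the 21-nt form.

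Of the 15 genes for regulators of microexon splicing, 10 had a total of 58 tested exons, and 1 of these was called higher in the first set and none lower, against 1.23% and 1.27% of all tested exons. The call was a 264-nt exon of MBNL2, an RNA-binding splicing factor, at 1.00, 1.00, 1.00 and 0.00, where library 2 of the second set again stood alone, the difference without it was 0.00 and the mean depth was 24.5 reads. No exon of SRRM4 or SRRM3 was among the tested exons, and the 6 tested exons of PTBP1 had no call. Exon levels say nothing of how much of a factor was made.

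By role, taken from gene symbols, 28 microexons fell in signalling genes, 38 in membrane traffic, 43 in the cytoskeleton and adhesion, 21 in transcription and chromatin, 22 in RNA and translation, and 282 in none of these. The share with a length that is a multiple of 3 was 83.7% in the cytoskeleton list, 78.6% in signalling and 76.3% in traffic, and 36.4% in the RNA and translation list. The median levels were 0.0713 in the cytoskeleton list, 0.114 in chromatin, 0.245 in traffic, 0.359 in signalling and 0.939 in RNA and translation. Of the 15 called microexons, 3 were in traffic genes, 1 was in a signalling gene and 11 were in none of the lists.

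The neighbours against which an exon is counted could change what was seen. Among the members, 48 had more than 1 row with a mean of at least 20 reads. STX16, a syntaxin of the trans-Golgi network, was named here after its values were seen. In its deepest row the 12-nt exon at chr20:57234679-57234690 had levels of 0.416, 0.327, 0.250 and 0.347, and the sets overlapped. In its second row, with other neighbours, the levels were 0.590 and 0.488 in the libraries of the first set, against 0.937 and 0.943 in the second, from 51 to 97 reads, with no overlap. The authors' deposited table gave the first row a difference of 0.073 and an FDR of 0.642, and the second row a difference of -0.401 and an FDR of 1.40e-08.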

How the data were processed

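RNA-seq of 4 libraries was compared as 2 sets of 2. Per the submitters' processing notes, reads were processed with cutadapt and STAR on hg19; versions, the annotation and the splicing caller are not given in the sources used here, and the columns have the layout of an rMATS skipped-exon table. The deposited cells hold junction read counts and inclusion levels of 2 libraries joined by a comma, and the authors' p-value, FDR (adjusted over all events) and difference between the mean inclusion levels, a score. Inclusion levels were recomputed from the reads, with a largest deviation of 0.000500.

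A microexon was called where the authors' FDR was under 0.05 and the difference at least 0.1. The planned edgeR fit was not made, since no column holds single counts. In its place a quasi-binomial model per event was fitted to inclusion and skipping reads, with the dispersion moderated by limma 3.58.1 (R 4.3.3) and held at 1 or more, Benjamini-Hochberg adjusted over 54503 events; it was tested on simulated data. An alternative applied limma to log2 inclusion over skipping reads (pseudocount 0.5). Intervals are 95% Wilson and cover counting error only; reads are not independent molecules. Exons were matched to GENCODE release 29 by gene, length and intron lengths: 410 by both introns, 19 by 1 and 5 not at all.

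Named microexons were those called by either test, the 10 with the largest difference and at least 50 reads in every library, the 15 of the known list and the 5 between 0.1 and 0.9 with most reads, and the 3 shortest; exceptions are stated, and 1 named microexon is not reported here. The members and lists were chosen with earlier results of these data known.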

Additional observations from a re-analysis of the deposited data

How the results depend on the processing

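The 15 calls from the authors' FDR became 5 for exons of 3 to 15 nt, 26 with a difference of at least 0.05, 3 with at least 0.2 and 6 with an FDR under 0.01. Of the 15, 9 to 14 still differed by at least 0.1 with a library left out, and 9 did without library 2 of the second set. The authors' FDR was kept from all 4 libraries and other microexons were not counted, so the number could only fall. The 1 quasi-binomial call became 0 with limma on the log2 ratio (smallest adjusted p 0.955, 14 at an unadjusted p under 0.05) and 0 to 22 with each library left out: 0 without either library of the first set (6 and 12 at an unadjusted p under 0.05), 22 without library 1 of the second set and 1 without library 2. The cause was not tested. The median level of 0.497 was 0.531 from unscaled read shares, 0.548 with a minimum of 10 reads, 0.451 with 50 and 0.479 to 0.515 with a library left out. The share of multiples of 3 rose from 62.9% to 78.5% for exons of 3 to 15 nt. The median difference ran from -0.000422 to 0.000402 with a library left out. Counted over all 15 original calls, whatever size their difference then had, 33.3% to 46.7% were positive. Without library 2 of the second set, RWDD4 differed by 0.00 and ATP13A3 by -0.00944, and without library 1 by 0.294 and 0.274; in the row with the second most reads, VPS29 differed by 0.0382 and GRIPAP1 by -0.0602. Of 225 alternative values for the 44 named microexons, 207 moved by less than the spread within sets. Most of these values left out 1 library, and that moves a difference by at most this spread by construction. The count therefore does not show that the differences were stable. In 14 of the 44 the difference changed sign or became 0 without some library, 2 of them called (RWDD4 and ATP13A3).

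With 2 libraries a set and a median of 89.00 to 153.0 reads a microexon, differences under the spread within sets cannot be told from scatter between libraries. The authors' test could still call them, as for ATP13A3, with a difference of 0.132 and a pooled SD within sets of 0.142. The edgeR scaling alternatives were not run, since that fit was not made. No paired analysis was possible because the columns carry no replicate numbers.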
